A study of Mus musculus with 12 samples.

Results

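Egf, 3 other ligands of the epidermal growth factor family (Hbegf, Nrg1 and Nrg4) and their 4 receptors (Egfr, Erbb2, Erbb3 and Erbb4) were followed through the hearts of 12 mice. These 8 genes, of 38293 in each count table, were matched by symbol to their Ensembl identifiers, and they were chosen because Egf is strongly lower in 1 of the groups, Zeb2 cTg IR. Their differences between Zeb2 cTg IR and Zeb2 WT IR are therefore given as a description with no test. The comparison of WT IR with WT sham does not enter that rule and was tested. Earlier results of these data were known, however, when the genes were chosen.

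The ErbB receptors are tyrosine kinases that act in pairs. EGF and HB-EGF bind EGFR, and HB-EGF also binds ERBB4, whereas neuregulins bind ERBB3 and ERBB4. ERBB2 has no known ligand and works as the preferred partner of the others, and the kinase domain of ERBB3 is nearly inactive. In the heart, neuregulin-1 is known as a signal from the endothelium to ERBB4 and ERBB2 on cardiomyocytes, where it supports growth, contractility and survival.

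The mice were young adult C57Bl/6J males, and RNA was sequenced from left ventricular tissue, 1 heart per library and 3 libraries per group. WT mice had sham surgery (WT sham) or ischaemia-reperfusion (WT IR), in which the left anterior descending coronary artery is tied off for a limited time and then reopened, and IR tissue was taken at 14 days. The Rosa26 locus of Zeb2 cTg mice holds a Zeb2 transgene behind a stop cassette, which a Cre recombinase driven by the cardiomyocyte promoter of Myh6 removes, and their controls without overexpression are Zeb2 WT. Both of these groups had IR and 14 days of recovery, so a sham group of either genotype was not analysed here, and whether the Zeb2 WT mice carried Cre is not given in the sources used here. The sources differ on whether the sampled tissue was the remote zone or the infarct area with its border.

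Each library held between 20215781 and 36816818 counts, of which between 60.6% and 73.5% fell on mitochondrial genes, leaving between 5706340 and 11618213 on nuclear genes. Values are counts per 1e6 after TMM normalization within each table (CPM), and 1 CPM stands for between 17.2 and 37.8 counts. Cardiomyocyte markers were abundant in every library (20 genes, summed level between 53280 and 80370 CPM), and the atrial markers Sln and Bmp10 stayed under 10 counts. The whole atrial list of 6 genes summed to between 21.4 and 43.7 CPM in WT sham but between 226.7 and 431.5 CPM in WT IR, with 1 of the 3 tested called higher and 1 lower. Zeb2 itself measured 54.7, 57.7 and 67.0 CPM in Zeb2 WT IR and 55.5, 56.9 and 58.7 CPM in Zeb2 cTg IR, a log2 fold change of -0.07 ± 0.12 (SE, edgeR quasi-likelihood test, Benjamini-Hochberg adjusted p = 0.750). The transgene was thus not visible as more Zeb2 counts, and for that reason these samples are named by their label, as the libraries labelled cTg IR. In WT IR the same gene measured 59.1, 80.8 and 74.6 CPM against 49.0, 49.9 and 55.9 CPM in WT sham, a rise of 0.47 ± 0.12 (log2, SE, adjusted p = 0.0219 in edgeR) that did not pass after correction for GC content (0.29, adjusted p = 0.0696) or without WT sham replicate 1 (0.44, adjusted p = 0.0850), WT sham replicate 2 (0.44, adjusted p = 0.112) or WT IR replicate 2 (0.38, adjusted p = 0.0951).

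Egf (ENSMUSG00000028017) lies on the minus strand at chr3:129677565-129755316, where all positions are in GRCm38 with GENCODE M21. Its product is made as a membrane-bound precursor from which the small growth factor is cut. In the libraries labelled cTg IR, Egf received only 10, 7 and 11 counts, whereas the Zeb2 WT IR libraries held 125, 180 and 141. On the normalized scale these were levels of 0.419, 0.267 and 0.309 CPM against 4.58, 7.29 and 4.70 CPM. Each library labelled Zeb2 cTg IR was far under each library of its controls, and the ranges did not come near each other. The group means were 0.332 ± 0.0785 CPM (SD, n = 3) and 5.52 ± 1.53 CPM (SD, n = 3), so the level was 16.7-fold lower, and the fitted log2 fold change was -4.05 ± 0.30 (SE). Leaving out any 1 library gave values between -4.23 and -3.81, and 9 other ways of processing gave values between -4.20 and -4.02.

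No difference in Egf between injured and sham WT hearts was detectable. It measured 2.95, 4.39 and 5.53 CPM in WT sham and 4.81, 4.39 and 3.17 CPM in WT IR. The groups overlapped fully, with a log2 fold change of -0.02 ± 0.23 (SE, adjusted p = 0.953 in edgeR). The WT levels were also close in size to those of Zeb2 WT IR, although the tables were normalized separately and no test was made between them.

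The other ligands did not share the low level of Egf in the libraries labelled cTg IR. Hbegf (ENSMUSG00000024486, chr18:36504927-36515805, minus strand), which encodes heparin-binding EGF-like growth factor, was the ligand with the highest level per length in all 4 groups. It measured 7.22, 6.92 and 7.43 CPM in Zeb2 WT IR and 7.96, 7.48 and 5.56 CPM in the libraries labelled cTg IR. The latter spanned the whole range of their controls, and the fitted difference was -0.04 ± 0.17 (log2, SE). In the WT table Hbegf measured 5.15, 6.56 and 6.40 CPM after sham surgery and 5.28, 5.71 and 6.49 CPM after IR, a difference of -0.05 ± 0.13 (log2, SE, adjusted p = 0.810 in edgeR). Neither injury nor the transgenic label went with a shift in Hbegf beyond the spread of the libraries.

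Nrg1 (ENSMUSG00000062991, chr8:31814551-32884029, minus strand), which encodes neuregulin-1, rose after IR in WT hearts. It measured 0.605, 0.245 and 0.349 CPM in WT sham, from 16, 8 and 6 counts, and 1.22, 0.794 and 1.64 CPM in WT IR, from 39, 30 and 44 counts. All injured hearts lay above all sham hearts, and the mean was 3.05-fold higher. With 8 and 6 counts in WT sham replicates 2 and 3, Nrg1 passed the filter on low counts only through the WT IR libraries. When at least 10 counts were required in every library, it was left out and not tested. Its test and the separation of its groups are given with that limit. The log2 fold change was 1.58 ± 0.39 (SE, adjusted p = 0.0226 in edgeR), and the exact permutation test of the 3 against 3 values gave p = 0.1, the smallest it can give. The call was lost without WT sham replicate 2 (1.24, adjusted p = 0.122), WT sham replicate 3 (1.52, adjusted p = 0.0730) or WT IR replicate 3 (1.32, adjusted p = 0.0511). In the Zeb2 table Nrg1 stayed low and scattered, at 0.660, 0.405 and 0.866 CPM in Zeb2 WT IR and 0.252, 0.649 and 0.702 CPM in the libraries labelled cTg IR (log2 difference -0.25 ± 0.43, SE).

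Nrg4 (ENSMUSG00000032311, chr9:55220222-55326844, minus strand), a neuregulin that binds ERBB4 and is best known from brown fat, was also a low-count gene, with between 16 and 40 counts per library. It measured 0.643, 1.104 and 0.931 CPM in WT sham and 0.969, 0.529 and 0.746 CPM in WT IR, which overlapped (log2 fold change -0.28 ± 0.31, SE, adjusted p = 0.552 in edgeR). The libraries labelled cTg IR measured 1.17, 1.14 and 1.12 CPM, against 0.880, 1.01 and 0.733 CPM in Zeb2 WT IR. They were close to each other and all above their controls, by a log2 difference of 0.39 ± 0.26 (SE) that was 0.57 after correction for GC content and 0.24 with size factors from cardiomyocyte markers.

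**Figure D1:**
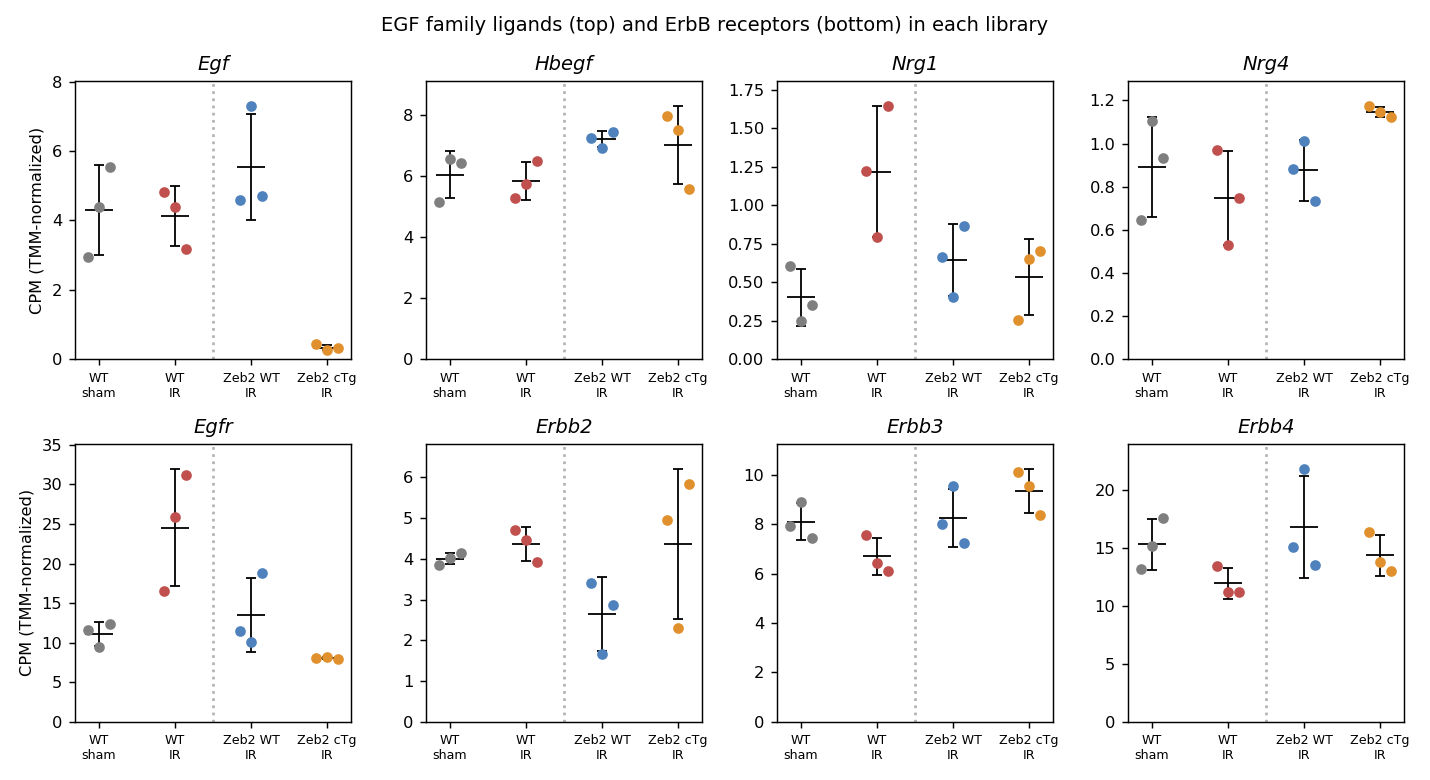
Level of each of the 8 genes (vertical axis, TMM-normalized CPM, starting at 0) in each of the 12 libraries. Points are libraries in replicate order, horizontal bars the mean of 3 and whiskers 1 SD, and the dotted line separates the tables, which were normalized separately. Egf lies between 0.267 and 0.419 CPM in the libraries labelled cTg IR and between 2.95 and 7.29 CPM in all other libraries.

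Of the receptors, Egfr (ENSMUSG00000020122, chr11:16752203-16918158, plus strand) had groups that did not overlap in either comparison, in opposite directions. In WT hearts it measured 11.6, 9.44 and 12.3 CPM after sham surgery and 16.6, 25.9 and 31.2 CPM after IR. Every injured heart was above every sham heart, and the mean was 2.21-fold higher. The rise was 1.15 ± 0.21 on the log2 scale (SE, adjusted p = 0.00797 in edgeR, exact permutation p = 0.1), and it passed in all 10 other ways of processing. It was lost without WT sham replicate 2 (1.02, adjusted p = 0.0577) and passed in the other 5 fits that left out 1 library.

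In the other table Egfr measured 11.5, 10.1 and 18.8 CPM in Zeb2 WT IR and 8.01, 8.21 and 7.89 CPM in the libraries labelled cTg IR. The latter were almost equal and lay under all of their controls, which spread widely, with replicate 3 the highest. The mean was 1.67-fold lower and the fitted log2 fold change was -0.75 ± 0.22 (SE), or -0.43 without Zeb2 WT IR replicate 3. The 10 other ways of processing gave values between -0.91 and -0.54, with -0.59 after correction for GC content.

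Erbb4 (ENSMUSG00000062209, chr1:68032186-69108059, minus strand), the main neuregulin receptor of cardiomyocytes, missed the threshold for a lower level after IR. It measured 13.2, 15.2 and 17.6 CPM in WT sham and 13.5, 11.2 and 11.2 CPM in WT IR. Only WT IR replicate 1 reached into the range of the sham hearts, and the log2 fold change was -0.35 ± 0.12 (SE, adjusted p = 0.0669 in edgeR). It passed after correction for GC content (-0.53, adjusted p = 0.0189), with no filter on low counts (-0.35, adjusted p = 0.0255) and without WT IR replicate 1 (-0.44, adjusted p = 0.00921), whereas size factors from cardiomyocyte markers left -0.07 (adjusted p = 0.725). In Zeb2 WT IR it measured 15.1, 21.8 and 13.5 CPM and in the libraries labelled cTg IR 16.3, 13.8 and 13.0 CPM, which overlapped (log2 difference -0.23 ± 0.19, SE).

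Erbb3 (ENSMUSG00000018166, chr10:128567523-128589652, minus strand) measured 7.94, 8.92 and 7.45 CPM in WT sham and 7.56, 6.43 and 6.12 CPM in WT IR. Like Erbb4, it overlapped through WT IR replicate 1, and its log2 fold change was -0.28 ± 0.12 (SE, adjusted p = 0.120 in edgeR), or -0.38 without that library (adjusted p = 0.0257). In the Zeb2 table it measured 8.03, 9.55 and 7.23 CPM in the controls and 10.1, 9.54 and 8.40 CPM under the transgenic label (log2 difference 0.18 ± 0.15, SE).

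Erbb2 (ENSMUSG00000062312, chr11:98412470-98437716, plus strand), the shared co-receptor, did not pass the test in the WT table. It measured 3.86, 4.02 and 4.13 CPM after sham surgery and 4.72, 4.47 and 3.92 CPM after IR (log2 fold change 0.13 ± 0.12, SE, adjusted p = 0.469 in edgeR). In the other table it scattered more than any other receptor on the log2 scale, with 3.41, 1.66 and 2.87 CPM in Zeb2 WT IR and 4.94, 2.29 and 5.84 CPM in the libraries labelled cTg IR. The groups overlapped through cTg replicate 2, the log2 difference was 0.72 ± 0.36 (SE), and correction for GC content left 0.33. Leaving out 1 library gave between 0.44 (without cTg replicate 3) and 1.02 (without cTg replicate 2). Erbb2 has the highest GC content of the 8 genes, 57.3%, and in this table the log2 differences of 12892 genes followed GC content (Spearman rho 0.55 across genes, a description, since genes share their libraries).

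Of the 8 genes, all of which passed the filter on low counts in both tables, 2 were called higher in WT IR and 0 lower, where 11% of the 13756 genes tested were called higher, 9.74% lower and 20.8% in either direction at an adjusted p under 0.05. The same 2 genes, Egfr and Nrg1, were those whose groups did not overlap, which held for 39.8% of all genes tested. Of these, Nrg1 passed the filter only through WT IR, and 1 member was called when at least 10 counts were required in every library. The median log2 fold change of the 8 genes was -0.04 beside 0.01 for all genes, so their middle lay close to that of all genes. Between the libraries labelled cTg IR and Zeb2 WT IR, no call is given for the 8 genes. The groups did not overlap for 3 of the 8 genes (Egf, Nrg4 and Egfr) and for 26.2% of all genes, and since the genes were chosen on this comparison nothing is read from this count.

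**Figure D2:**
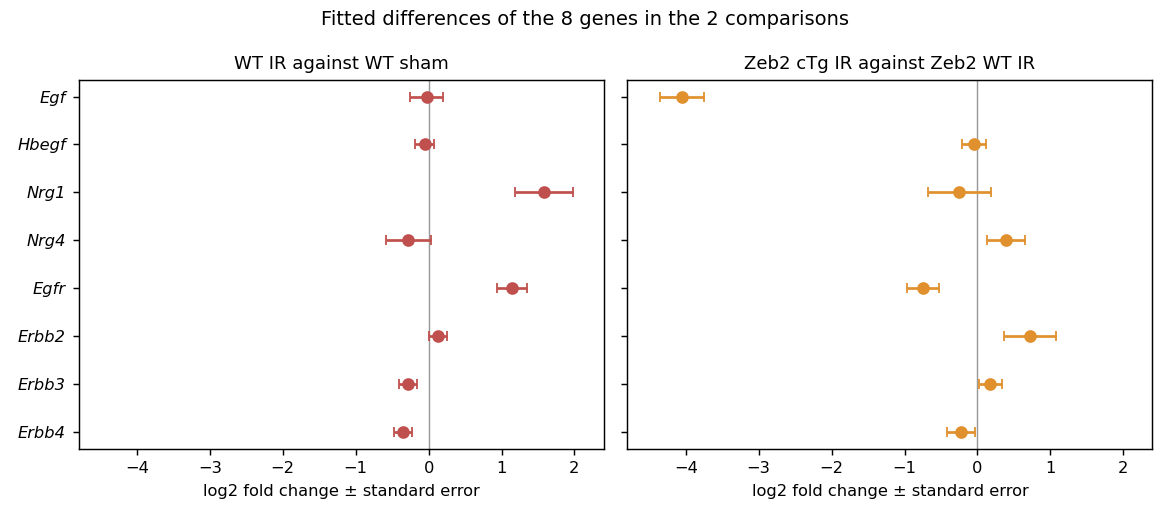
Fitted log2 fold change (horizontal axis) of the 8 genes in WT IR against WT sham (left) and in Zeb2 cTg IR against Zeb2 WT IR (right), with whiskers of 1 standard error from edgeR. Egfr (1.15) and Nrg1 (1.58) stand to the right of 0 in the left panel, and Egf (-4.05) stands far to the left of 0 in the right panel.

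Levels of different genes were compared as CPM per kilobase of exon. In WT sham the order was Erbb3 (1.35), Hbegf (1.25), Erbb4 (1.24), Egfr (0.983), Erbb2 (0.768), Egf (0.380), Nrg4 (0.147) and Nrg1 (0.0386). The first 4 formed a chain in which each overlapped the next over the 3 libraries, and from Egfr downwards no neighbours overlapped. In WT IR, Egfr (2.17) moved to the top and no longer overlapped Hbegf (1.21), while Nrg1 (0.118) drew level with Nrg4 (0.123). Zeb2 WT IR had Hbegf (1.49), Erbb3 (1.37), Erbb4 (1.36) and Egfr (1.19) as its overlapping upper members. In the libraries labelled cTg IR, Egf (0.0294) came last, overlapping Nrg1 (0.0516) and under Nrg4 (0.189), whereas in Zeb2 WT IR it overlapped Erbb2 (0.490 and 0.508) and stood above both neuregulins.

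The make-up of each class followed from these levels. Egfr held 19.3% to 24.7% of the summed CPM per kilobase of the 4 receptors after sham surgery and 31.1% to 50.8% after IR. Erbb3 went from between 27.3% and 34.4% to between 18.7% and 26.6%, and Erbb4 from between 25.7% and 31.3% to between 16.7% and 23.1%, so the share of the neuregulin-binding receptors was smaller after IR with no overlap between the groups. In the Zeb2 table Egfr held between 19.5% and 36.8% in the controls and between 15.2% and 18.8% under the transgenic label. Among the 4 ligands, Egf held between 19.3% and 28.3% in Zeb2 WT IR but between 1.30% and 1.96% in the libraries labelled cTg IR, where Hbegf held between 80.4% and 86.6%. A share changes for every gene of a class when 1 of them moves, so these percentages restate the levels above and are no separate measurement.

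**Figure D3:**
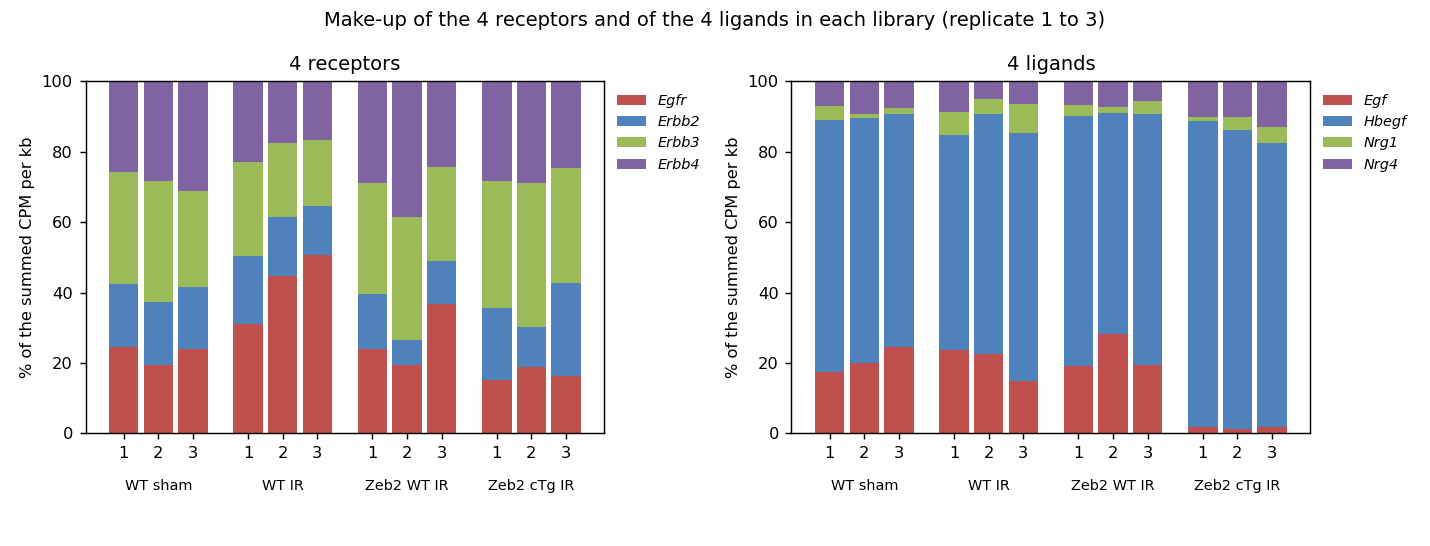
Share of each receptor (left) and each ligand (right) in the summed CPM per kilobase of its class (vertical axis, percent), with 1 bar for each library. In the left panel the Egfr segment is largest in WT IR (median 44.7%), and in the right panel the Egf segment is a thin strip in the libraries labelled cTg IR (median 1.92%).

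Fibroblast markers differed between the groups in the same direction as Egfr in both comparisons. The summed level of 10 fibroblast markers lay in the range of 538.7 to 947.5 CPM after sham surgery and of 1931 to 4812 CPM after IR, with 9 of the 10 called higher, while the 20 cardiomyocyte markers summed to 69300 to 76250 CPM and 53280 to 68560 CPM, with 6 called lower. The fibroblast marker sum was between 933 and 2071 CPM in Zeb2 WT IR and between 560.5 and 684.6 CPM in the libraries labelled cTg IR, with 3 of the 10 called lower. Within the injured WT and Zeb2 WT groups, the library with the most fibroblast marker signal, replicate 3 in both, was also the library with the most Egfr. This did not hold in WT sham, where the marker sum was highest in replicate 1 (947.5 CPM) and Egfr in replicate 3 (12.3 CPM), nor in the libraries labelled cTg IR, where replicate 3 had the highest marker sum (684.6 CPM) and the lowest Egfr (7.89 CPM). Egfr per 1000 CPM of these markers was 12.2, 17.5 and 19.8 in WT sham but 8.59, 8.32 and 6.49 in WT IR, so the markers were raised by a larger factor than Egfr. In Zeb2 WT IR this ratio was 8.97, 10.8 and 9.07, and in the libraries labelled cTg IR it was 14.3, 13.9 and 11.5. In whole tissue, fewer cells of a type and less RNA per cell cannot be told apart, and the part of fibroblast content in the Egfr values was not tested.

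**Figure D4:**
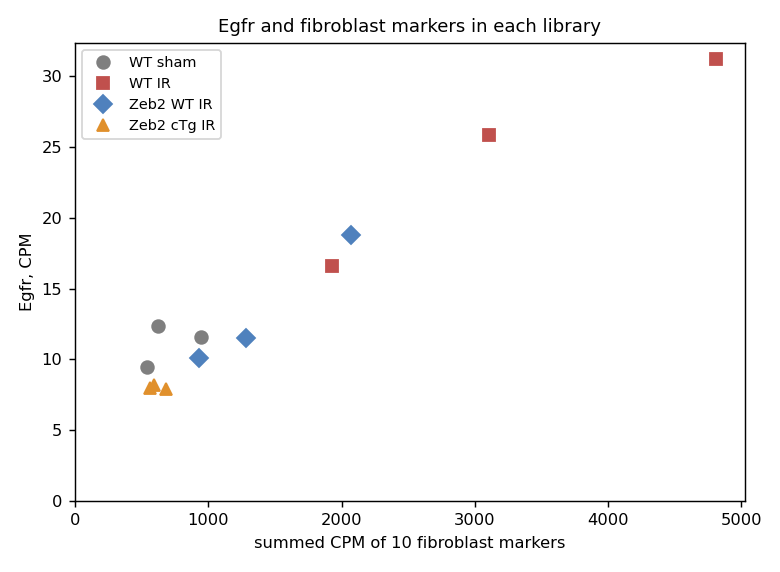
Egfr (vertical axis, CPM) against the summed CPM of 10 fibroblast markers (horizontal axis) in the 12 libraries, with a symbol for each group and both axes starting at 0. The 3 libraries labelled cTg IR sit together between 7.89 and 8.21 CPM of Egfr, and the WT IR libraries reach 31.2 CPM at 4812 CPM.

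Other marker lists gave the setting of the ligands. Macrophage markers (10 genes) summed to 162.8 to 181.5 CPM after sham surgery and 236.4 to 442 CPM after IR, with 8 called higher, beside the rise of Nrg1. Endothelial markers (10 genes) summed to between 505.5 and 534.3 CPM and between 425.1 and 517.6 CPM in these groups, with 0 called in either direction. The part of these cell types in the Nrg1 value was not tested.

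Beside the low Egf of the libraries labelled cTg IR, cardiomyocyte markers (20 genes) were not lower, and they summed to between 75570 and 80370 CPM against between 67630 and 73380 CPM in Zeb2 WT IR, with 2 called higher. Mural cell markers summed to between 559.7 and 625.9 CPM against between 723.8 and 849.8 CPM. Of the 9 tested, 5 had a higher and 4 a lower fitted value, and 1 was called lower. Endothelial markers (between 378.1 and 440.5 CPM against between 419.1 and 472.5 CPM) had 0 called, and neither had endocardial markers (6 genes, between 64.5 and 96.6 CPM against between 53.7 and 61.2 CPM). The atrial list was higher through 1 called gene of the 3 tested (between 108.5 and 285.2 CPM against between 28.7 and 64.0 CPM). The part of these cell types in the Egf value was not tested.

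The genes nearest to Egf in pattern over the 12 libraries, by the root mean square difference of log2 CPM centred within each table among 11997 candidates, were Tmem150c (0.31), Mettl11b (0.47) and D7Ertd443e (0.47), where the pattern of Egf itself had a root mean square of 1.37. Tmem150c encodes a membrane protein and received 57, 60 and 56 counts in Zeb2 WT IR but 4, 1 and 4 in the libraries labelled cTg IR. Mettl11b, a methyltransferase gene, received 20, 32 and 33 counts against 1, 0 and 4. D7Ertd443e received 43, 43 and 67 counts against 2, 0 and 0. In the other 9 libraries these genes had between 13 and 78 counts. They lie on chromosomes 5, 1 and 7, and Egf lies on chromosome 3. Because they were picked for likeness to Egf, their low level in the libraries labelled cTg IR follows from the choice. The cause of the shared pattern was not tested.

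The genes nearest to Egfr, which of the 8 genes had the smallest p in WT IR, were Pdpn (0.11), Fam114a1 (0.12) and Prss23 (0.12), against 0.54 for Egfr itself. Pdpn encodes podoplanin, a membrane glycoprotein known from lymphatic endothelium and activated fibroblasts, and Prss23 encodes a serine protease. Their log2 differences were 1.40, 1.02 and 1.11 in WT IR against WT sham and -0.71, -0.67 and -0.78 in Zeb2 cTg IR against Zeb2 WT IR, close to the 1.15 and -0.75 of Egfr. These genes were picked for this likeness.

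**Figure D5:**
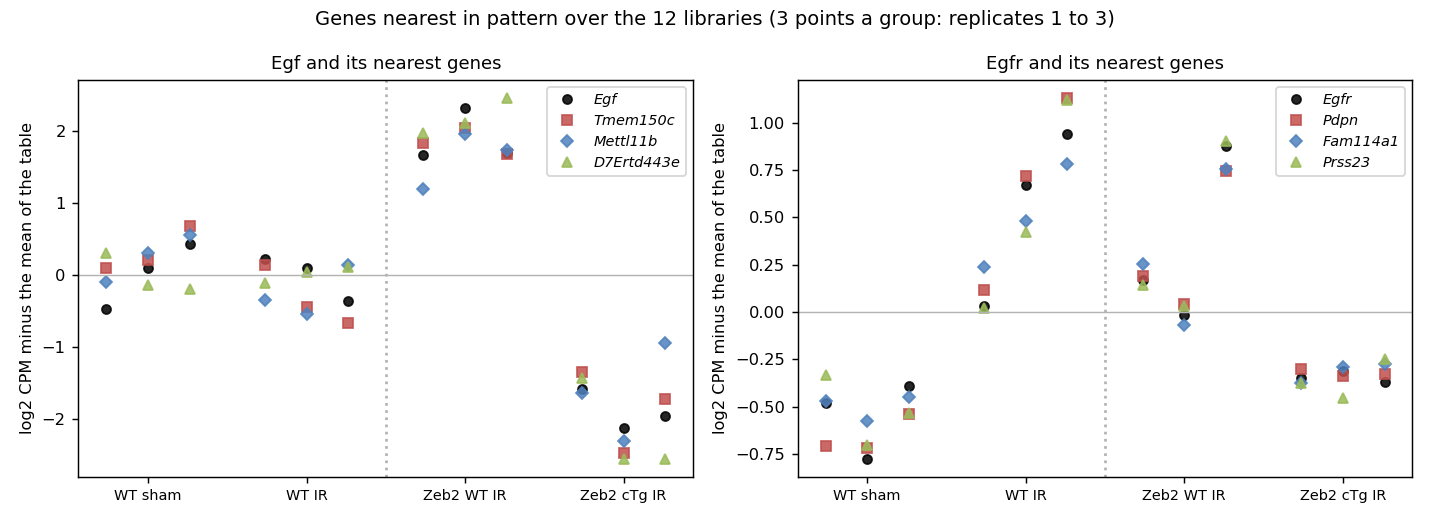
Log2 CPM minus the mean of the table (vertical axis) in each of the 12 libraries for Egf and its 3 nearest genes (left) and for Egfr and its 3 nearest genes (right). In the left panel the genes are low together in the libraries labelled cTg IR, and in the right panel they peak in replicate 3 of WT IR and of Zeb2 WT IR. The nearest genes were picked for this likeness to Egf or to Egfr.

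ZEB2 is a repressor known to bind the short motif CACCT and the E-box CACCTG, and both were looked for on either strand of the RefSeq promoter windows (GRCm38.p6, from 250 bases before to 50 after a start), which the table used holds for 5 of the 8 genes, as 6 windows. CACCT occurs in 51.9% of the 32851 windows of all genes and CACCTG, which contains it, in 20.2%. The stretches around each CACCT match are shown so that the letters behind these counts can be read, in the direction of the gene and with the match in capitals, where AGGTG is CACCT on the opposite strand. Egfr is given at chr11:16752068-16752096, Egf at chr3:129755351-129755379, Nrg4 at chr9:55283782-55283810 and chr9:55283650-55283678, and Erbb4 at chr1:69108235-69108263.
Egf, first base of the match at -45 from the start: ctaaagaagaggAGGTGgagccagaagag
Egfr, -123: gccatccaccacCACCTtccggtcactgc
Nrg4, -173: ctttaggggtgcCACCTaccgcagctcct
Nrg4, -41: gacctctgctcaCACCTtggtctgccttg
Erbb4, -192: gatttggacaggAGGTGcaaggagactga

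The match of Egf lies in 1 of its 2 windows, and Erbb2 and the other window of Egf held none. CACCTG was found in none of the 6 windows. A match is a run of letters and not a measured binding site.

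The remaining pathway was described with a list of 71 other genes: further ligands, proteases and other genes of ligand release, adaptors and kinases, negative regulators and genes induced by the ERK branch. After IR in WT hearts, 13 of the 65 that could be tested were called higher and 7 lower, beside 11% and 9.74% of all genes. The groups did not overlap for 32 of the 65, beside 39.8% of all genes. The median log2 fold change was -0.01, beside 0.01 for all genes. With size factors taken from cardiomyocyte markers, which moved the median of all genes to 0.30, 20 were called higher and 0 lower. The calls of the lower genes below therefore hold relative to all genes and were lost with these factors.

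Among further ligands, Ereg, which encodes epiregulin, rose by 2.23 ± 0.38 (log2, SE, adjusted p = 0.00656 in edgeR) from 0.153 ± 0.0364 to 0.764 ± 0.211 CPM (SD, n = 3), on between 2 and 27 counts per library, and its call was lost without WT sham replicate 2 (2.19, adjusted p = 0.0534). Ereg passed the filter on low counts only through the WT IR libraries, and its call is given with that limit. It was left out when at least 10 counts were required in every library. Btc, the betacellulin gene, had between 19 and 45 counts and a log2 fold change of -0.08 (adjusted p = 0.833 in edgeR), and Nrg2, with between 3 and 15, had -1.02 (adjusted p = 0.144). The remaining ligand genes were near the limit of detection at this depth. Tgfa had between 3 and 13 counts, Epgn between 0 and 4, Nrg3 between 0 and 1 and Areg 0 in all WT libraries. Of the EGFR ligands measured here, Hbegf and Egf therefore carried most of the counts in uninjured and injured WT hearts.

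Of the 8 genes of ligand release, 2 were called higher and 2 lower after IR, beside 11% higher and 9.74% lower among all genes. Adam19, a metalloprotease that can process neuregulin, fell by 0.55 on the log2 scale (SE 0.11, adjusted p = 0.0108 in edgeR) from 47.9 ± 5.05 to 32.9 ± 3.99 CPM (SD, n = 3), a call lost without WT sham replicate 2 (-0.52, adjusted p = 0.0677). Of 31 adaptors and kinases, 4 were higher and 4 lower, beside the same shares of all genes. Gab2, a docking adaptor below EGFR, rose by 0.59 ± 0.09 (log2, SE, adjusted p = 0.00530) from 16.8 ± 1.03 to 25.4 ± 2.50 CPM (SD, n = 3), and passed in all 6 fits that left out a library. Map2k2, the kinase MEK2, fell by 0.62 on the log2 scale (SE 0.11, adjusted p = 0.00733) from 20.8 ± 1.55 to 13.5 ± 1.85 CPM (SD, n = 3) and also passed in all 6. The called genes at the kinase level went in both directions, as they did among all genes, and nothing is read from these counts.

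Beside 11% of all genes called higher and 9.74% lower, 4 of 16 negative regulators were called higher and 1 lower. Of the 7 genes of the ERK branch that could be tested, 2 were higher and 0 lower. These were Etv5, an ETS transcription factor, which rose by 0.76 ± 0.13 (log2, SE, adjusted p = 0.00702 in edgeR) from 5.55 ± 0.799 to 9.30 ± 0.992 CPM (SD, n = 3), and Myc, which rose by 1.22 ± 0.23 (adjusted p = 0.00934) from 0.772 ± 0.134 to 1.85 ± 0.374 CPM (SD, n = 3). Both calls were lost without WT sham replicate 2 (Etv5 0.70, adjusted p = 0.0524, and Myc 1.19, adjusted p = 0.0616, edgeR). Fos and Egr1, immediate early genes of the same branch, had log2 fold changes of -0.01 (adjusted p = 0.985) and 0.34 (adjusted p = 0.596).

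Between the libraries labelled cTg IR and Zeb2 WT IR, where Egf was so much lower, 1 of the 63 pathway genes tested was called higher and 0 lower, beside 2.14% and 1.51% of the 13018 genes tested and 3.64% in either direction. The groups did not overlap for 13 of the 63, beside 26.2% of all genes. The median log2 fold change of the list was -0.05, beside 0.01 for all genes. The called gene was Ier3, an immediate early gene of the ERK branch, which rose by 1.58 ± 0.23 (log2, SE, adjusted p = 0.0109 in edgeR) from 4.24 ± 1.22 to 12.6 ± 2.31 CPM (SD, n = 3). It passed in all 6 fits that left out a library and in all 10 other ways of processing. In WT hearts the same gene did not pass (-0.08 ± 0.12, SE, adjusted p = 0.657).

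The genes named above for WT hearts did not pass here. Adam19 had a log2 difference of 1.24 (adjusted p = 0.0563 in edgeR), Map2k2 1.03 (adjusted p = 0.0733) and Gab2 -0.36 (adjusted p = 0.201). Ereg, with between 0 and 22 counts, was too low to be tested, and Nrg2 (between 0 and 11), Tgfa (between 2 and 9), Epgn (between 0 and 3), Nrg3 (between 0 and 2) and Areg (between 0 and 1) were likewise. Btc had a log2 difference of -0.26 (adjusted p = 0.584). Of the 7 further ligand genes only Btc could be tested here, so no call was possible for the rest. The number of pathway genes called in this table was between 1 and 8 over the other ways of processing and reached 14 without Zeb2 cTg IR replicate 2.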

How the data were processed

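RNA from 12 mouse hearts was sequenced as stranded single-end reads. The authors aligned the reads with STAR (2.4.2a in the submitters' processing notes, build mm10) and GENCODE M4, counted them per gene with HTSeq (0.6.1) and deposited whole-number counts without normalization, as 2 tables of 6 libraries and 38293 genes. The strand setting of the counting is not given in the sources used here, so antisense transcripts cannot be told apart from the genes they overlap, and the sources also differ on the tissue zone and on an mRNA or total RNA kit. All sample columns were used. Groups came from the labels.

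Each table was fitted on its own in R 4.3.3 with edgeR 4.0.16 (TMM, filterByExpr with a minimum count of 10 and a total of 15, quasi-likelihood test, Benjamini-Hochberg adjustment over all genes tested, threshold 0.05), and the method was tested on simulated data. A symbol was found for 36429 genes, and exon length, position and GC content come from GENCODE M21. CPM per kilobase divides CPM by the union of exons. Single genes were also compared by a two-sided exact permutation test. No libraries held the same counts. Labels do not say that libraries came from separate litters or days.

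The members and lists were chosen with earlier results of these data known. The named genes are the members, Zeb2, the 3 genes nearest in pattern to Egf and to the member with the smallest p in WT IR (log2 CPM with prior count 2, predicted genes left out), the pathway genes with an adjusted p under 0.05 and at most the 6 smallest p per comparison, and the 7 further ligands; Fos and Egr1 were added after their values were seen. Alternatives were RLE size factors, no mitochondrial genes, size factors from 20 cardiomyocyte markers, no filter, at least 10 counts in every library, the replicate number as a block, a GC correction (loess, span 0.5), both together, all 12 libraries in 1 fit, DESeq2 1.42.0, and each library left out. The result of 1 further marker list is not reported here. The skeletal muscle markers summed to between 3.51 and 9.03 CPM. Figures were drawn with matplotlib 3.10.9.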

Additional observations from a re-analysis of the deposited data

How the results depend on the processing

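Replicate numbers belong to different mice. Deviations of same-numbered libraries correlated by -0.03, 0.01 and -0.01 in the WT table and by 0.13, 0.26 and -0.04 in the Zeb2 table, where replicate 1 correlated best with replicate 3 (0.33), so the numbers were not taken as pairs. With the replicate block, 2595 genes were called in the WT table instead of 2859 and 1813 in the Zeb2 table instead of 474, with 18 pathway genes instead of 20 and 8 instead of 1, and the same number of members (2). With all 12 libraries in 1 fit, 1424 genes and 5 pathway genes were called in WT IR and 1932 and 8 in the Zeb2 comparison. In the latter, DESeq2 called 1096 genes and 5 of the pathway, GC correction 854 and 2, the block with GC correction 759 and 2, no filter 1553 and 8, and cardiomyocyte marker factors 754 and 3. At least 10 counts in every library left 1 member called in WT IR (Nrg1, and Egf in the Zeb2 table, were filtered out and have no value). Leaving out 1 library gave between 421 (without WT sham replicate 2) and 4980 genes (without WT IR replicate 1), between 0 and 4 members and between 3 and 31 pathway genes in WT IR, and between 98 (without Zeb2 WT IR replicate 3) and 2419 genes (without Zeb2 cTg IR replicate 2) and between 1 and 14 pathway genes in the Zeb2 comparison. The share of higher genes among those called in WT IR was 53.1% (1519 higher, 1340 lower), against 93.3% with marker factors (3088 and 221), 42.8% with GC correction (1178 and 1576) and 66.7% with all 12 libraries in 1 fit (950 and 474); in the Zeb2 comparison it was 58.6% (278 and 196), against 22.8% with marker factors (172 and 582), which moved the median of all genes to -0.15. Values that changed sign were, with marker factors in WT IR, Egf 0.24, Hbegf 0.25, Nrg4 0.010 and Erbb3 0.010, and in the Zeb2 comparison Zeb2 with GC correction (0.15) and with the block and GC correction (0.15), and Erbb4 in the same fits (0.0051 and 0.013). Without 1 library, Egf in WT IR ranged from -0.24 to 0.15, Hbegf from -0.16 to 0.0096, and in the Zeb2 comparison Zeb2 from -0.13 to 0.019 (the latter without Zeb2 WT IR replicate 3), Hbegf from -0.15 to 0.10, Nrg1 from -0.51 to 0.055 and Erbb4 from -0.36 to 0.0043. The cause of these changes was not tested. Low counts limit Nrg1, Nrg4 and Egf under the transgenic label, and 3 libraries per group cannot give an exact permutation p under 0.1.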
